A study of Mus musculus with 6 samples.

Results

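The 48 genes described here encode the machinery with which a nerve terminal fills, docks, fuses and recycles synaptic vesicles. They were taken as a given list of presynaptic genes, put together by function when earlier results of these data were known, and sorted into 6 role groups. All 48 were found once each among the 37315 genes of the count tables, and all 48 were tested in every comparison. Hippocampal RNA of C57BL/6J mice aged 4 weeks was sequenced in 3 experiments, which gave 6 libraries, 1 per group. In the first experiment, Prrc2a flox/flox (f/f) mice were set against animals of that genotype bearing nestin-cre, a transgene that drives recombinase in neural progenitors and so in the neurons and glia made from them. In the second, f/f mice were set against f/f mice with Olig2-cre, which is expressed from the endogenous Olig2 locus and leaves 1 working Olig2 allele. The paper used this driver to delete Prrc2a in cells of the oligodendroglial lineage. In the third, wild-type (WT) mice were set against mice with an Fto transgene (Fto Tg), a mouse Fto coding sequence delivered by lentivirus under the ubiquitin C promoter. Thus both libraries of each Prrc2a experiment carried the floxed alleles and differed in Cre, and the labels name no floxed allele in the Fto experiment. Whether several mice were pooled for a library was not given in the sources used here.

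Neurotransmitter is packed into vesicles by transporters such as Slc17a7 (VGLUT1) and Slc17a6 (VGLUT2), and vesicles are tethered at the active zone by large scaffold proteins, among them Bsn (bassoon), Pclo (piccolo) and the Rims proteins. Munc13 proteins (Unc13a, Unc13b) prime them, and a SNARE complex of Snap25, a syntaxin and a Vamp protein drives fusion when calcium binds a synaptotagmin. Membrane is then retrieved by dynamins, amphiphysins, endophilin (Sh3gl2) and synaptojanin (Synj1). Fto removes the methyl mark N6-methyladenosine (m6A) from RNA and Prrc2a recognizes it, so the comparisons ask how transcripts of this machinery stood when a reader was deleted or an eraser was added. With Olig2-Cre the deletion was directed at the oligodendroglial lineage, while the libraries hold bulk hippocampal RNA.

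Total counts lay between 18616540 (Olig2-Cre) and 35482589 (f/f of the Nestin-Cre experiment). The Nestin-Cre library stood apart: mitochondrial genes took 26.2% of its counts against 7.97% to 8.86% in the other 5, and its TMM factor, a scaling factor that allows for a shifted composition, was 0.672 against 1.07 to 1.09. Prrc2a was at 434 CPM (counts scaled to a common library size) in f/f and 184 in Nestin-Cre, at 389 in f/f and 346 in Olig2-Cre, and at 351 in WT and 334 in Fto Tg. The Prrc2a difference in the Olig2-Cre pair was not called, and that in the Nestin-Cre pair was −1.24 on the log2 scale before and 0.29 after adjustment for GC content and length, so that its drop was no larger than that of genes of like GC content and length. These counts cover the whole gene and do not resolve the floxed exons. Fto stood at 354 CPM in Fto Tg and between 136 and 164 in the other 5. Neuronal and hippocampal markers were present in every library, and of the 10 cell type marker lists only the habenular gene Pou4f1 was at 0 counts, in Olig2-Cre.

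Sequences of members on which the results turn are given first. Syn1 and Syn2 are paralogous vesicle coat proteins that moved in opposite directions in the Nestin-Cre pair, and Slc17a6 and Slc17a7 are the paralogous glutamate transporters that did so with TMM scaling. Reads were counted only where they mapped to 1 place, so how far paralogs differ bears on the counts. Coding sequences of Syn1 and Syn2 were identical at 72.3% of 1683 aligned bases, with a longest shared run of 26 bases. For Slc17a6 and Slc17a7, identity was 73.0% over 1650 aligned bases, and the longest shared run was 21 bases. The most alike ungapped 120 coding bases of each pair are shown, 5′ to 3′ on the coding strand, with capitals at the positions that differ between the paralogs. They were read from the GENCODE M21 transcripts on GRCm38, the assembly the authors call mm10. By that annotation, Syn1 (ENSMUSG00000037217) is at chrX:20860511-20921004, Syn2 (ENSMUSG00000009394) at chr6:115134902-115282006, Slc17a6 (ENSMUSG00000030500) at chr7:51622006-51671119 and Slc17a7 (ENSMUSG00000070570) at chr7:45163949-45176142. The Syn1 stretch spans exons 7 to 9 at chrX:20864857-20865156 on the minus strand, and that of Syn2 exons 7 to 9 at chr6:115254695-115262528 on the plus strand, introns included in both ranges. Those of Slc17a6 (chr7:51625375-51625494) and Slc17a7 (chr7:45168809-45168928) lie within exon 2 on the plus strand.
Syn1: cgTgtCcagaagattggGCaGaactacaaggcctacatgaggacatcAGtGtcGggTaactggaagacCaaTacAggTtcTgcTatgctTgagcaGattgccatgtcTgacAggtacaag
Syn2: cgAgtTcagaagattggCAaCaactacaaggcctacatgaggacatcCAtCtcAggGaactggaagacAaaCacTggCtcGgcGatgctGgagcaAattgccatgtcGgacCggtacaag
Slc17a6: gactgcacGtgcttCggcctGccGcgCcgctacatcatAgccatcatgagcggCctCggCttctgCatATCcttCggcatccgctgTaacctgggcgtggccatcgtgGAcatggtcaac
Slc17a7: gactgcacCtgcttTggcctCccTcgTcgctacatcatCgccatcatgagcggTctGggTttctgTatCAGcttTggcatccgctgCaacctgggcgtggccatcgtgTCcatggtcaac
Even in these stretches, 20 of 120 bases differed between the synapsins and 17 of 120 between the transporters.

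Because Prrc2a and Fto act on m6A, the pentamer GGACT, the DNA form of a common m6A consensus, was counted on the sense strand of each longest transcript. Members held a median of 0.977 copies per kb, against 1.02 over the genes tested in the Nestin-Cre pair with a known sequence, so the list was not rich in the motif. A GGACT match is a description of the letters and no measure of methylation. The first coding copy with its flanks, in capitals, is shown for the synapsins and for the active-zone genes Pclo and Rims1, which recur below. Pclo (ENSMUSG00000061601) is at chr5:14514918-14863459 and Rims1 (ENSMUSG00000041670) at chr1:22286251-22805994. Their coding sequences held 1 copy in Syn1, 3 in Syn2, 15 in Pclo and 5 in Rims1. The windows lie at chrX:20864781-20864861 (exon 9, minus strand), chr6:115262592-115263879 (exons 9 and 10 with the intron between, plus strand), chr5:14675070-14675150 (exon 5, plus strand) and chr1:22538481-22538561 (exon 6, minus strand).
Syn1: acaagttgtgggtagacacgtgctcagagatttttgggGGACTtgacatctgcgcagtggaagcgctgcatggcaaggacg
Syn2: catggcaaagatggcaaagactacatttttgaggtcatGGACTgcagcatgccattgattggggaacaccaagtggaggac
Pclo: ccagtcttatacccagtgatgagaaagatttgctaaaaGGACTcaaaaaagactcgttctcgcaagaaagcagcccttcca
Rims1: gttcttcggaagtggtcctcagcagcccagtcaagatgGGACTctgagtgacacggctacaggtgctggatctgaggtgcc
All 4 windows are 81 bases long.

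RefSeq promoter windows (GRCm38.p6, 300 bases around a start site) were found for 37 of the 48 members. The hexamer GGGCGG, the core of a GC box, occurred on either strand in 32 of their 50 windows, 64.0%, against 35.7% of all 32851 windows. Member windows were also richer in GC, with a median of 62.5% against 52.7%. TGACGTCA, the full cyclic-AMP response element, was in windows of Syn1 and Sh3gl2 and in 1.79% of all windows. TATAAA on either strand was in windows of 1 member, Sv2b, and in 13.6% of all windows. The 250 bases before the start site are shown for Pclo and Rims1, which were lower together in 2 of the pairs, and for Syn1, with GGGCGG or TGACGTCA in capitals. They lie at chr5:14514668-14514917 (plus strand), chr1:22806159-22806408 (minus strand) and chrX:20920919-20921168 (minus strand).
Pclo: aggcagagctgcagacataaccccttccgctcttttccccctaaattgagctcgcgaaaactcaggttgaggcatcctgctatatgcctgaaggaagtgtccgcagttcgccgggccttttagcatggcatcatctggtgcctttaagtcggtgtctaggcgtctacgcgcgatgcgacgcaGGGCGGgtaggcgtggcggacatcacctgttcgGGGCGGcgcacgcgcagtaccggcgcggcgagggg
Rims1: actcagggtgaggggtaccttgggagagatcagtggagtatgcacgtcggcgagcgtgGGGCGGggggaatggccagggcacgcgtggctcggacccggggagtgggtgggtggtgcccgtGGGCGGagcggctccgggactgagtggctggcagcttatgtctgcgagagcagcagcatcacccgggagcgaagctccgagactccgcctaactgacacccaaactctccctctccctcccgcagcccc
Syn1: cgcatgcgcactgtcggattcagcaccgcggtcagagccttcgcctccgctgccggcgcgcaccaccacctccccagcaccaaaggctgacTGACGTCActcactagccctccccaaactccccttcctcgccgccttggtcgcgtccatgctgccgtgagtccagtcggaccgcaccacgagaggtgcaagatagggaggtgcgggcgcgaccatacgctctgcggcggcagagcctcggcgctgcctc
A match describes the letters of the window, and no binding was measured here.

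Levels between genes are given as CPM per kb of exon, averaged over the 3 control libraries (mean ± SD, n = 3, from 3 experiments). The top of the list was taken by the SNARE Vamp2, the principal vesicle SNARE, at 276 ± 17.5, and by the fusion clamp Cplx2 at 271 ± 13.2. Snap25, the plasma membrane SNARE, followed at 237 ± 3.10, with Slc17a7 at 234 ± 24.0 and the dynamin Dnm1 at 213 ± 7.38. Vamp2 and Cplx2 did not differ beyond their spread, and neither did Snap25 and Slc17a7. At the bottom stood Syn3 at 0.668 ± 0.19, Sv2c at 1.23 ± 0.37 and Doc2a at 2.48 ± 0.47. Most active-zone scaffolds lay in the lower part. Pclo was at 10.3 ± 0.14 and Unc13b at 2.94 ± 0.08, whereas Rab3a, the small GTPase of vesicles, reached 188 ± 1.74. The 2 glutamate transporters were far apart, since Slc17a6 was at 6.78 ± 0.81 only.

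**Figure D1:**
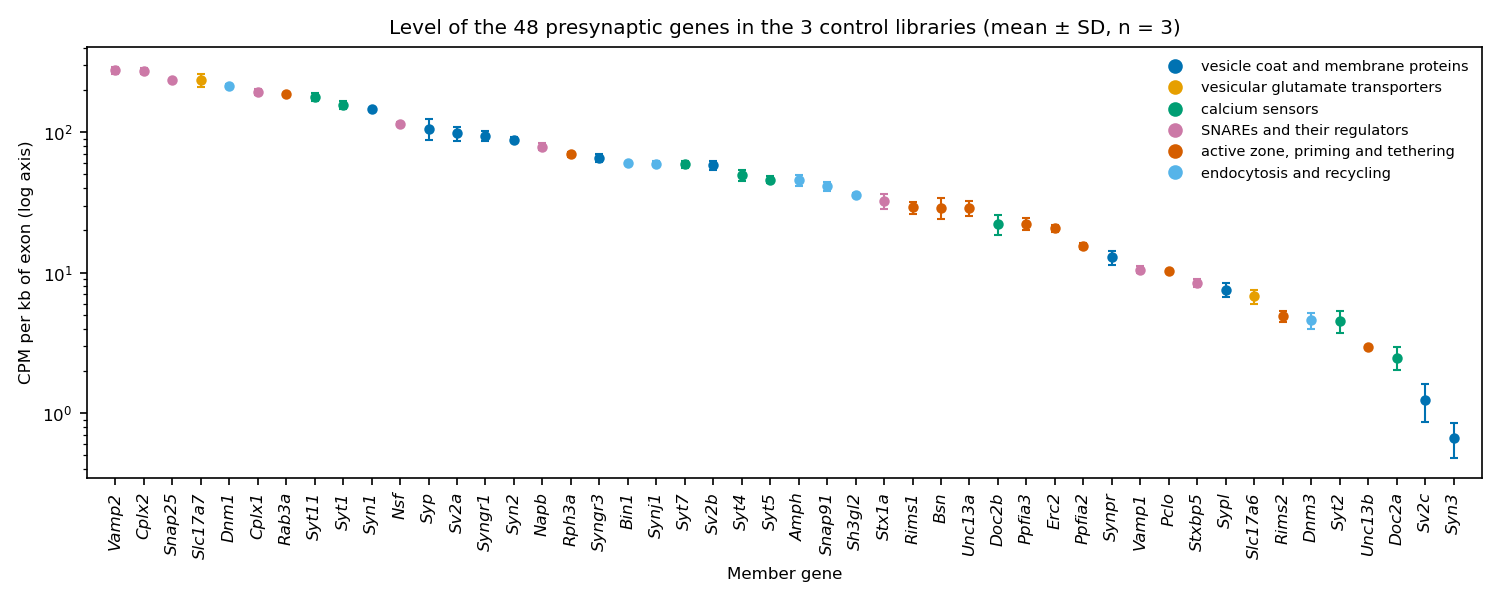
Level of each member in CPM per kb of exon on a log axis, as mean ± SD of the 3 control libraries, ordered from high to low and coloured by role group. Vamp2, Cplx2, Snap25, Slc17a7 and Dnm1 lead, and the active-zone genes fill much of the lower part.

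Summed over the 48 members, the machinery took between 1.873% and 1.996% of the counts of each library. Its share was 1.996% in f/f and 1.959% in Nestin-Cre, 1.916% in f/f and 1.933% in Olig2-Cre, and 1.941% in WT and 1.873% in Fto Tg. With TMM scaling the sum in Nestin-Cre was 29167 CPM against 18486 in its control and 17471 to 17818 in the others. Within the sum, single members moved. Outside the Nestin-Cre library they moved little: over the other 5 libraries, 39 of 48 members stayed within 1.5-fold, with a median ratio of highest to lowest of 1.23. The widest of these ratios were those of Slc17a6 at 2.51, Sv2c at 2.22, Syn3 at 1.964 and Pclo at 1.64. The Nestin-Cre library lay outside the range of the other 5 for 39 of 48 members, and for 85.2% of the 14539 genes with a mean of at least 1 CPM.

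**Figure D2:**
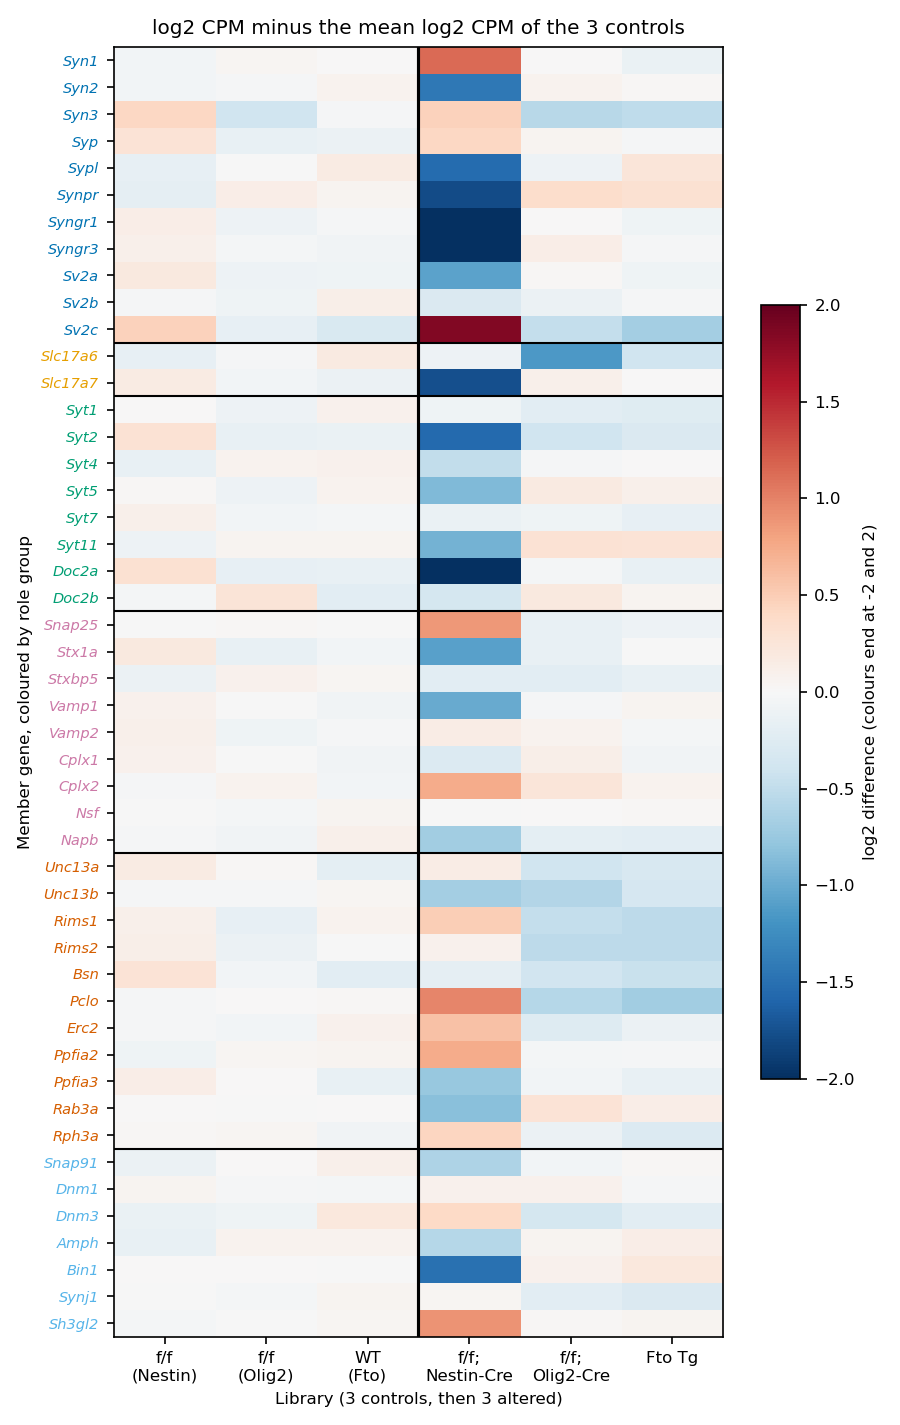
Each cell gives log2 CPM of a member (rows, grouped by role) minus its mean log2 CPM in the 3 controls, for the 3 control libraries on the left and the 3 altered libraries on the right. The Nestin-Cre column holds the strong colours in both directions, and Pclo, Rims1, Rims2 and Unc13b are blue in both the Olig2-Cre and the Fto Tg column.

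The first comparison asked how the machinery stood after deletion with Nestin-Cre. Within the list, Syn1, Snap25, Cplx2, Pclo and Sh3gl2 stood higher in CPM in the Nestin-Cre library, and Doc2a, Syngr1, Syngr3, Slc17a7 and Syn2 stood lower. A gene was called when the MARS read test gave a Benjamini-Hochberg false discovery rate (FDR) below 0.001 and the fold change was at least 1.2. With 1 library per group this test compares 2 libraries and not the genotypes. Of the 48 members, 11 were called higher and 24 lower, against a background of 64.9% of 18170 genes called, 11.5% higher and 53.4% lower. The median log2 ratio was −0.28 for the members and −0.72 for all genes, and 32 of 48 members lay above the median gene. TMM scaling moved the median of all genes to −0.03, and the split of the members to 28 higher and 12 lower, against a background of 28.4% higher and 29.8% lower. After adjustment of the ratios for GC content and length, it was 27 higher and 14 lower, with a background of 27.6% and 27.8%. Ratios of this pair are therefore also given with TMM scaling, under which the median gene is near 0. Members called higher in all of the other scalings, the adjustment and with either other control were 10, and members called lower in all of them were 11. The share of all genes that kept a call in all of them is not given. These counts therefore describe the members and do not set them apart from other genes.

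The vesicle coat and membrane proteins ranged from −2.45 to 1.38 on the log2 scale, and the upper value was the highest of the list. In the order f/f, Nestin-Cre, f/f, Olig2-Cre, WT and Fto Tg, used for all 6 values below, Syn1 was at 463, 1049, 494, 480.1, 479 and 435 CPM. Its paralog Syn2, a synapsin like it that ties vesicles to the cytoskeleton, was at 600.2, 231, 613, 649.7, 649.8 and 631 CPM. So Syn1 was high and Syn2 low in the same library, and neither control nor altered libraries elsewhere approached those values. The log2 ratios were 1.18 for Syn1 and −1.38 for Syn2, and with TMM scaling they were 1.86 and −0.69. Sv2c, a vesicle glycoprotein typical of the basal ganglia, was at 16.1, 41.9, 10.4, 8.38, 9.40 and 7.25 CPM, with the highest ratio of the list, 1.38 (FDR 4.8e-92), or 2.07 with TMM scaling. The f/f library of that experiment also had the highest Sv2c of the controls. After adjustment for GC content and length, Syn1 had the highest ratio of the list at 2.61, and Sv2c was at 1.75.

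The synaptogyrins Syngr1 and Syngr3, tetraspan proteins of the vesicle membrane, were low in Nestin-Cre. Syngr1 was at 495, 90.2, 420, 453, 445 and 426 CPM, a log2 ratio of −2.45, or −1.77 with TMM scaling. Syngr3 was at 146, 32.8, 132, 149, 129 and 133 CPM, a log2 ratio of −2.15, or −1.47 with TMM scaling. The other 5 libraries lay close together for both genes and did not overlap the Nestin-Cre value. After adjustment for GC content and length, the ratios of Syngr1 and Syngr3 were −1.25 and −0.70. Synpr (synaptoporin), abundant at mossy fiber terminals, went from 106 to 34.8 CPM, a log2 ratio of −1.61, or −0.93 with TMM scaling, and Sypl and Sv2a were called lower as well. The vesicle marker Syp (synaptophysin) was not called with library totals, at 657 and 730.0 CPM, and was called higher with TMM scaling, at 0.84. In this group 2 of 11 members were called higher and 6 lower, and 5 and 6 with TMM scaling.

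Slc17a7, which loads glutamate into vesicles of most hippocampal and cortical terminals, was at 1407, 373, 1210, 1345, 1163 and 1263 CPM. Nestin-Cre was thus the only library under 1163 CPM, and the log2 ratio was −1.92, or −1.23 with TMM scaling and −0.76 after the adjustment. Slc17a6, used by thalamic and other subcortical terminals, was at 32.6 and 33.8 CPM in this pair, with a log2 ratio of 0.05, or 0.74 with TMM scaling. Together the transporters held 406 CPM in Nestin-Cre and 1205 to 1440 CPM elsewhere.

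Of the 8 genes grouped as calcium sensors, none was called higher and 6 lower, or 4 higher and 2 lower with TMM scaling. The group also holds Syt11, which does not bind calcium and was among the lower calls with library totals. Doc2a, a calcium sensor of spontaneous and asynchronous release, was at 8.48, 1.01, 6.17, 6.71, 6.23 and 6.19 CPM. The drop was the largest of the list, with a log2 ratio of −3.06 (FDR 7.4e-52), or −2.37 with TMM scaling, from a low level, and 39.4% of the Doc2a exon bases overlap exons of Ino80e on the opposite strand. Counting ignored strand, so reads of the overlap cannot be assigned to either gene. After adjustment for GC content and length the Doc2a drop was no longer the largest. It was −1.29, against −1.68 for Synpr and −1.41 for Sypl. Syt2, a fast sensor, was at 41.4 and 11.6 CPM, a ratio of −1.84, or −1.15 with TMM scaling. Syt1, the main fast sensor of forebrain terminals, was at 1307 and 1223 CPM and was not called, but with TMM scaling its ratio was 0.59 and called higher.

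In the SNARE group, 2 of 9 members, Snap25 and Cplx2, were called higher and 4 lower, and 6 and 2 with TMM scaling. Snap25 was at 1595, 2936, 1631, 1446, 1595 and 1502 CPM, and Cplx2 was at 1321, 2238, 1410, 1584, 1283 and 1411 CPM. Nestin-Cre was far above the range of the other 5 for both, with log2 ratios of 0.88 and 0.76, or 1.57 and 1.45 with TMM scaling. Vamp2 was at 1123, 1161, 993, 1097, 1033 and 1025 CPM and was not called with library totals, and with TMM scaling it was called higher in Nestin-Cre at 0.73. Its paralog Vamp1 was at 113 and 53.0 CPM in the pair and was called lower with both scalings. The clamp Cplx1 (−0.36) and Napb (−0.67), an adaptor of the disassembly factor Nsf, were called lower with library totals and stood at 0.33 and 0.01 with TMM scaling. The target SNARE Stx1a was at 98.4 and 40.7 CPM, but its ratio of −1.27 became 0.21 after adjustment for GC content and length. Summed over the group, SNAREs and their regulators held 8190 CPM in Nestin-Cre against 6114 to 6337 CPM in the other 5 libraries, and Snap25 and Cplx2 together gained more CPM than the group as a whole.

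The active-zone group had 5 of 11 members called higher and 4 lower, and 7 higher and none lower with TMM scaling. Pclo was at 228, 458, 232, 156, 235 and 143 CPM, 2.01-fold higher in Nestin-Cre than in its control, and 1.69 on the log2 scale with TMM scaling. Rims1, the Rab3 effector that organizes release sites, was at 229, 302, 190.4, 154, 225 and 149.7 CPM, a log2 ratio of 0.40, or 1.09 with TMM scaling. For both genes Nestin-Cre was the highest of all 6 libraries, and Olig2-Cre and Fto Tg were the lowest. The liprin Ppfia2, the scaffold Erc2 and the Rab3 effector Rph3a were also called higher, with log2 ratios of 0.84, 0.61 and 0.40, or 1.52, 1.30 and 1.08 with TMM scaling. Rab3a was called lower at 422 and 234 CPM, a ratio of −0.85, which became −0.16 with TMM scaling, without a call, and 0.40 after the adjustment. Of Ppfia2 exon bases, 24.5% overlap exons of genes on the opposite strand.

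Among the endocytic genes, Sh3gl2 (endophilin A1) was at 229, 435, 232, 238, 242 and 244 CPM, so that 5 libraries were almost level and Nestin-Cre stood alone. Its log2 ratio was 0.93 and that of Dnm3 was 0.53, or 1.61 and 1.21 with TMM scaling. Dnm1, which drives fission at most terminals, was at 1164, 1187, 1101, 1188, 1093 and 1102 CPM and was not called in any pair with library totals, but in the Nestin-Cre pair it was called higher with TMM scaling, at 0.71. Bin1 (amphiphysin 2) was at 250.04 and 88.6 CPM, a ratio of −1.50, or −0.81 with TMM scaling and −0.39 after the adjustment. Bin1 is also made by oligodendrocytes. Their 16 mature markers summed to 6785 CPM in Nestin-Cre and 10007 CPM in its control, by library totals and without TMM scaling. Their part in the Bin1 ratio was not tested.

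**Figure D3:**
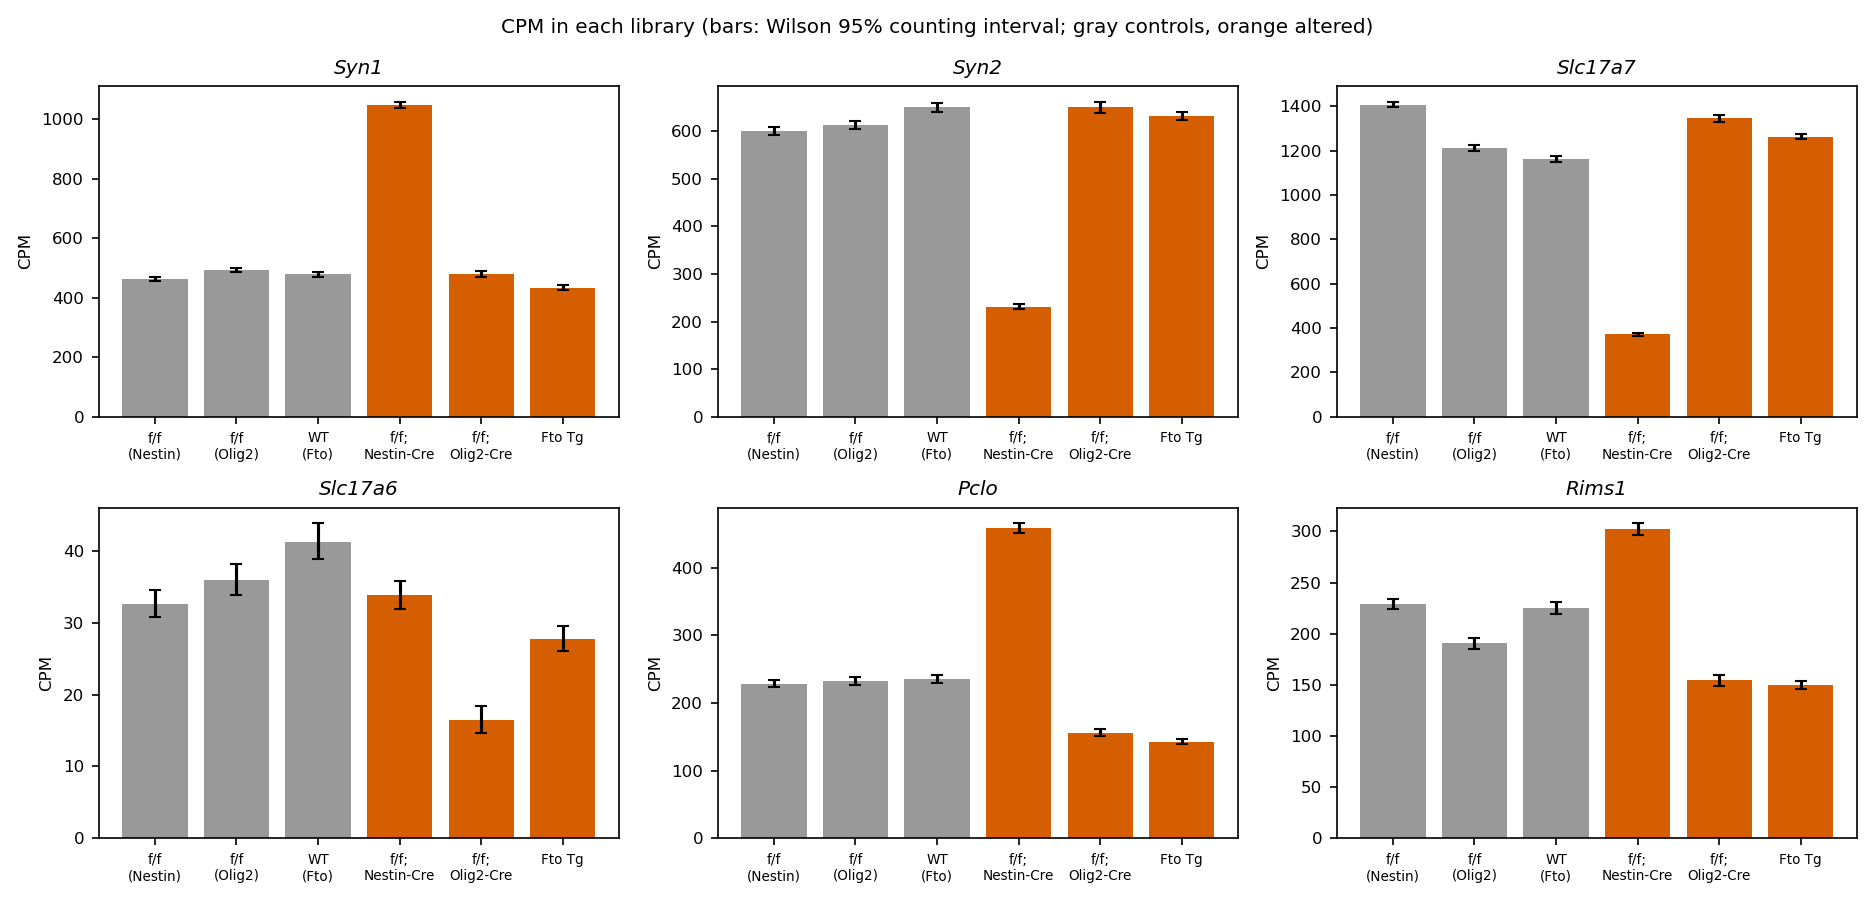
CPM of Syn1, Syn2, Slc17a7, Slc17a6, Pclo and Rims1 in each library, with Wilson 95% intervals that cover counting error only. Syn1 and Pclo are highest and Syn2 and Slc17a7 lowest in Nestin-Cre, and Pclo and Rims1 are lower in Olig2-Cre and Fto Tg than in all 3 controls.

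A test that holds the spread between control libraries was added after the data were seen: each altered library was set against the 3 controls with edgeR's quasi-likelihood test, TMM scaling and an FDR of 0.05. The lone library is assumed to vary as the controls do. For Nestin-Cre, 25 members were called higher and 9 lower, against 48.6% of 17840 genes called in either direction. Largest among them were Sv2c at 2.503 (edgeR FDR 2.7e-04) and Syn1 at 1.84 (edgeR FDR 3.7e-05), and Doc2a at −2.09 (edgeR FDR 0.0017) and Syngr1 at −1.62 (edgeR FDR 1.8e-04), as log2 ratios over the controls. The shares of all genes called higher and lower by this test are not given, so the members' split by direction stands without its background. The library differed from the controls in a large share of its genes. In TMM-scaled CPM, 29 members were above all 3 controls and 15 below, against a background of 41.1% above and 45.9% below.

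Other genes in the library moved with these results, and their part in them was not tested. General neuronal markers summed to 5507 CPM in Nestin-Cre against 4895 to 5174 CPM in the other 5, with 7 of 14 called higher and 5 lower. Interneuron markers summed to 865 CPM against 1400 to 1717 CPM, and choroid plexus markers to 273 CPM against 699 to 3449 CPM. These sums use library totals, by which the median gene of the pair stood at −0.72 on the log2 scale. Marker sums with TMM scaling are not given, so a lower sum may hold the shift in composition. GC content moved too: of the 24 members above the list's median GC of 49.7%, 17 were called lower, and of the 24 below it, 7. Of all genes with enough counts, 77.3% above and 50.6% below that value were called lower. Over 48 members, Spearman's rho between the ratio and GC content was −0.35, and over 13630 genes it was −0.43. In bulk tissue, fewer cells of a type and less RNA per cell cannot be told apart.

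In the second comparison, the Olig2-Cre pair, 37 of the 48 members were not called, and the lower calls included Slc17a6 and 6 active-zone genes. Of 48 members, 2 were called higher and 9 lower, against a background of 11.9% of 17742 genes, 4.95% higher and 6.91% lower. Most active-zone genes have a long exon length, and of all genes longer than the members' median, 23.0% were called lower. The median log2 ratio was −0.05 for the members and 0.00 for all genes. Of 11 active-zone genes, 6 were called lower and 1 higher, while none of the 11 vesicle coat and membrane genes was called in either direction. After adjustment for GC content and length, Pclo and Unc13a were the active-zone genes still past the fold threshold. Slc17a6 was at 32.6, 33.8, 35.9, 16.4, 41.2 and 27.7 CPM over the 6 libraries. Olig2-Cre was by far the lowest, with a log2 ratio of −1.13 (95% counting interval −1.31 to −0.94, FDR 2.9e-38) that was −1.03 after the adjustment. Among the other 9 markers of thalamus and habenula, 8 were tested, of which 3 were called higher and 1 lower. Slc17a7 stood at 1210 and 1345 CPM and was not called.

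Pclo followed at −0.57 (FDR 2.8e-77), then Unc13b, a priming factor, at −0.55 (FDR 1.9e-20), with 66.1, 41.7, 65.4, 44.7, 69.05 and 53.1 CPM over the 6 libraries. For Unc13b all 3 controls lay between 65.4 and 69.05 CPM by library totals, and all 3 altered libraries lay below them. With TMM scaling, Unc13b in Nestin-Cre was level with its own f/f control (0.02 on the log2 scale, no call). Only Olig2-Cre and Fto Tg then remained below all 3 controls. Unc13a, the chief priming factor of excitatory terminals, was at 370 and 275 CPM (log2 ratio −0.42), Rims2 at 46.8 and 35.4 CPM (−0.40), Bsn at 440.1 and 351 CPM (−0.32) and Rims1 at 190.4 and 154 CPM (−0.30). The syntaxin-binding regulator Stxbp5 (tomosyn) and Dnm3 completed the 9. Called higher were Rab3a, at 422, 234, 414, 504, 418 and 458 CPM, and Syt5, a synaptotagmin of dense-core and other vesicles, at 111, 59.2, 102, 124, 115 and 117 CPM. Both ratios were 0.28, and Olig2-Cre held the highest value of the 6 libraries for both. Syt11, a synaptotagmin that does not bind calcium, had the next ratio, 0.24, without a call, at 858, 478, 956, 1125, 961 and 1118 CPM.

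With the spread of the 3 controls in the test, the count of members called in Olig2-Cre was 0, and 0.0% of 17490 genes were called by edgeR's quasi-likelihood test. At an unadjusted p under 0.05 stood 9 members, 6 of them lower, and 1481 genes. Slc17a6 was the first of them, with a log2 ratio over the controls of −1.15 (edgeR FDR 0.45), before Pclo at −0.57 (edgeR FDR 0.58). In TMM-scaled CPM, 21 members were below and 9 above all 3 controls, against a background of 31.0% below and 28.3% above.

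In the third comparison, Fto Tg against WT, no member was called higher and 9 were called lower, against a background of 15.5% of 18051 genes, 6.97% higher and 8.51% lower. The median log2 ratio was −0.07 for the members and −0.01 for all genes. Pclo again stood out, at 235 CPM in WT and 143 in Fto Tg, a log2 ratio of −0.72 (95% counting interval −0.77 to −0.66, FDR 1.7e-146). Rims1 was next at −0.59, then Slc17a6 at −0.57 and Rims2 at −0.53. Rims2, the second large Rim scaffold, was at 55.2, 53.6, 46.8, 35.4, 50.6 and 35.1 CPM, and only Olig2-Cre and Fto Tg were under 46.8 CPM. The rest of the 9 were Dnm3, Unc13b, Synj1, Syt1 and Napb, with log2 ratios from −0.43 to −0.31. Syt1 was at 1378 CPM in WT and 1094 in Fto Tg, and 1378 was the highest of the 6 libraries.

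The highest ratios in the Fto pair, none of them called, were those of Doc2b, Synpr and Syt11. Doc2b, a calcium sensor like Doc2a, was at 93.4, 75.1, 114, 109, 82.7 and 99.2 CPM, and its log2 ratio was 0.26, with controls alone spanning 82.7 to 114 CPM. Synpr was at 106, 34.8, 132, 154, 125 and 149 CPM, and its ratio was 0.25. With TMM scaling both of these genes were called higher, which made 2 higher and 9 lower, against 8.25% and 7.42% of genes. Against the 3 controls, the edgeR quasi-likelihood test called 0 members and 0.0224% of 17831 genes in Fto Tg, with 6 members, 5 of them lower, and 1755 genes at an unadjusted p under 0.05. Pclo led with −0.69 (edgeR FDR 0.36). In TMM-scaled CPM, 20 members lay below all 3 controls and 9 above, against 27.9% below and 31.9% above over all genes.

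**Figure D4:**
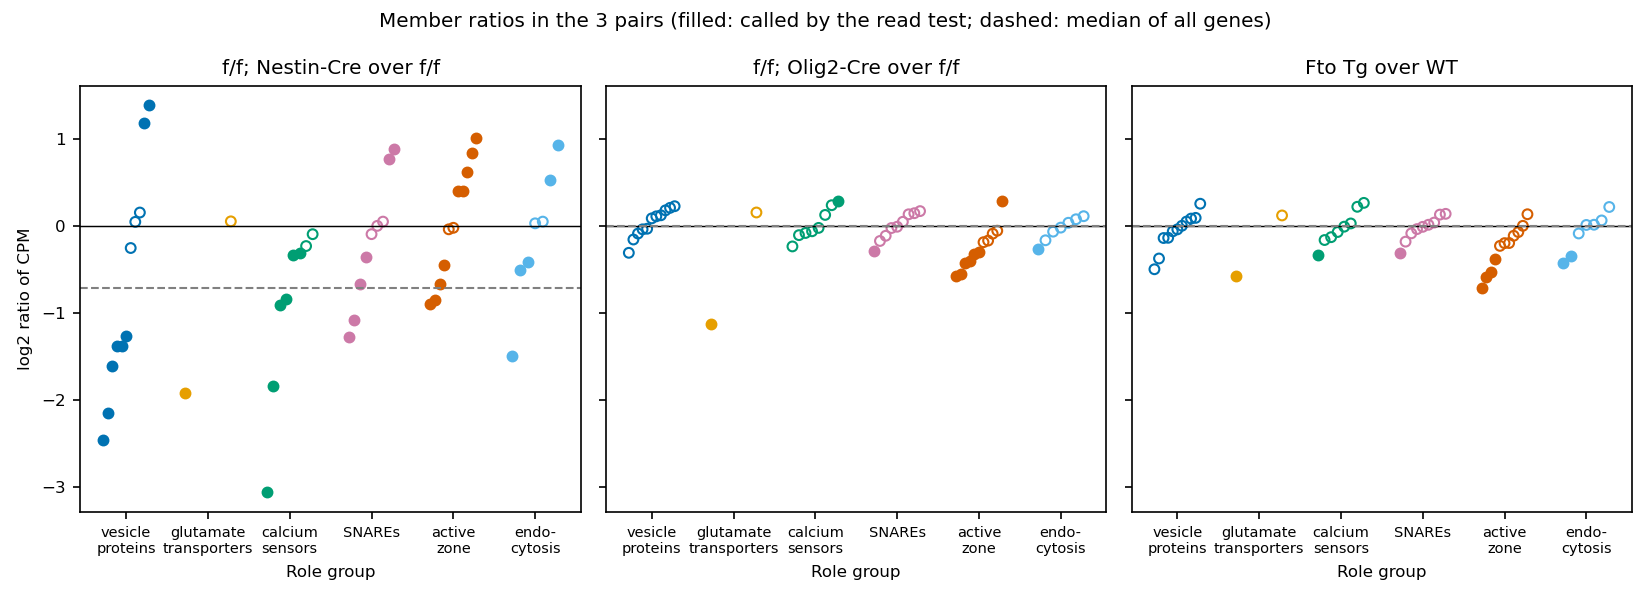
Log2 ratio of CPM for each member in the 3 pairs, by role group. Filled points were called by the read test, and the dashed line marks the median of all genes, which lies at −0.72 in the Nestin-Cre pair and near 0 in the others.

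Called lower in both the Olig2-Cre and the Fto pair were 6 members, Slc17a6, Unc13b, Rims1, Rims2, Pclo and Dnm3, against a background of 3.91% of 17352 genes. These pairs share no library. The active zone holds 4 of the 6. Pclo was at 228, 232 and 235 CPM in the controls and at 156 and 143 CPM in Olig2-Cre and Fto Tg. The difference between these altered libraries and the controls was far wider than that among the controls. Pclo was picked for its low ratios in these same pairs, so the gap is a description and no test. Dnm3, a dynamin of the synapse, was at 102, 147, 105, 87.7, 129 and 96.0 CPM, and its controls alone spanned 102 to 129 CPM. With other scalings, the adjustment for GC content and length and either other control, Slc17a6 and Pclo kept their call in the Olig2-Cre pair and Pclo, Rims1 and Rims2 kept theirs in the Fto pair.

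Exon length, meaning the merged exons of all annotated transcripts of a gene, moved with these ratios. Members had a median exon length of 7041 bases, against 3915 over the genes tested in the Nestin-Cre pair. Of the 24 longer members, 8 were called lower in Olig2-Cre and 8 in Fto Tg, and of the 24 shorter, 1 and 1. Over the 48 members, Spearman's rho between exon length and ratio was −0.68 (Olig2-Cre pair) and −0.56 (Fto pair), and over all genes with enough counts it was −0.45 (13216 genes) and −0.49 (13590 genes). Among all genes longer than the cut, 23.0% were called lower in the Olig2-Cre and 27.8% in the Fto pair. After the adjustment, the Olig2-Cre pair had 3 members called lower and 2 higher, against 3.48% and 3.39% of genes, and the Fto pair 5 and 3, against 4.07% and 5.19%. Pclo remained among the lower ones at −0.29 and −0.39, while Dnm3 was at 0.04 and −0.08. Whether length itself, RNA integrity or the genotype set these ratios was not tested. Genes share library and composition here, so these coefficients describe the libraries only.

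**Figure D5:**
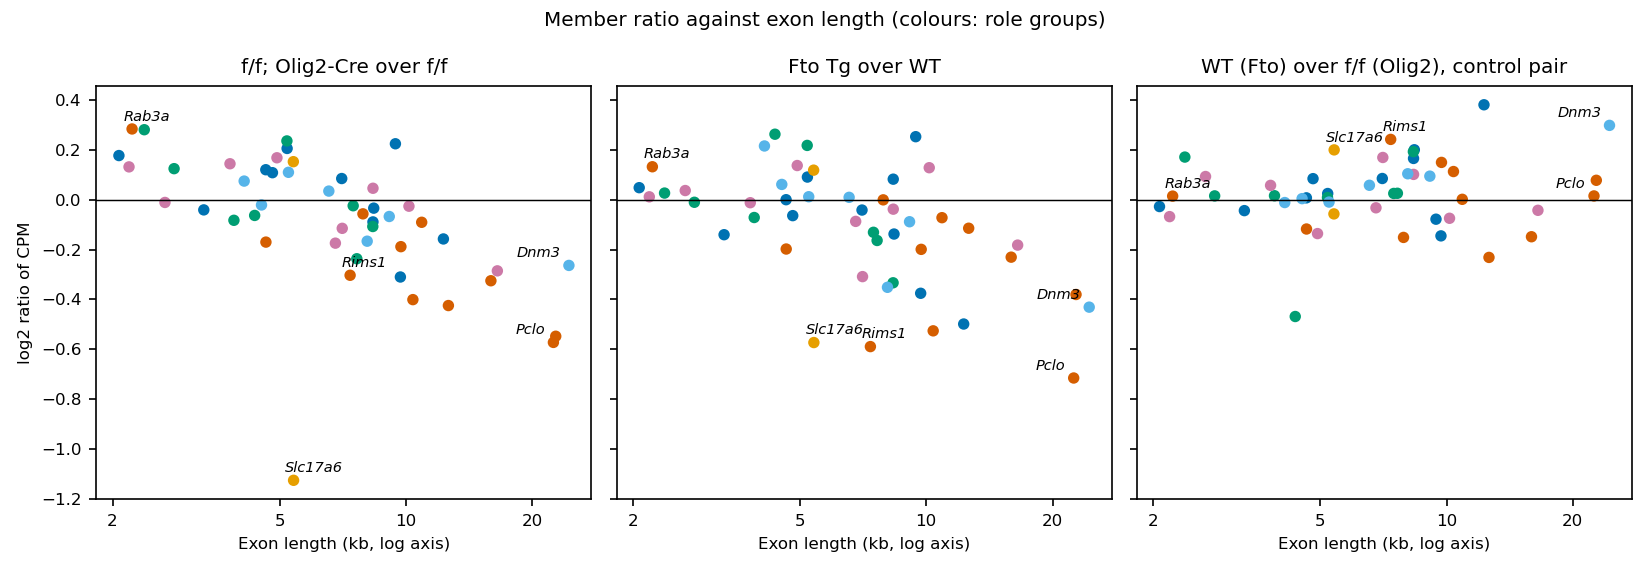
Log2 ratio against exon length (log axis) for the 48 members in the Olig2-Cre pair, the Fto pair and the control pair WT over f/f of the Olig2-Cre experiment, coloured by role group. Ratios fall with length in both altered pairs and do not in the control pair, and Slc17a6 lies far below genes of its length in the Olig2-Cre pair.

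The same read test between controls showed how much the machinery differed without deletion or transgene. The f/f control of the Olig2-Cre experiment against that of the Nestin-Cre experiment gave 2 members higher and 8 lower, with 13.1% of 18432 genes called. WT against the f/f control of the Nestin-Cre experiment gave 3 higher and 8 lower, with 17.3% of 18227 genes called. WT against the f/f control of the Olig2-Cre experiment gave 1 higher and 1 lower, Dnm3 at 0.30 and Doc2b at −0.47, with 7.2% of 18037 genes called. The first 2 of these share the f/f control of the Nestin-Cre experiment, in which Syp, Sv2a, Sv2c, Syt2 and Bsn were high. Thus 11 and 9 member calls (Olig2-Cre and Fto) lay near the 10 and 11 of the control pairs with that library and above the 2 of the pair formed by their own controls. The SD of the log2 ratio over the 48 members was 0.259 and 0.233 there, against 0.229, 0.241 and 0.143 between controls and 0.983 in the Nestin-Cre pair. The named members differed in part: neither Pclo, Rims2 nor Unc13b was called in any control pair, whereas Rims1, Bsn, Unc13a, Dnm3 and Slc17a6 each were in at least 1. In length the control pairs were unlike the Olig2-Cre and Fto pairs, with rho of 0.04, 0.16 and 0.15 over the 48 members. The Nestin-Cre pair had a length rho of 0.30, of the same sign as the control pairs. In GC content the control pairs were not level, with rho of −0.46, −0.64 and −0.40.

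The single contrast with 2 libraries per arm set both Cre libraries against both f/f libraries. With edgeR's quasi-likelihood test, 0 of 48 members and 0.0% of 16921 genes were called at an FDR of 0.05. At an unadjusted p under 0.05 stood 0 members and 143 genes, and the smallest member FDR by this edgeR test was 0.955. DESeq2 called 0 members as well, with 2 at an unadjusted p under 0.05. Leaving out the Olig2-Cre library, with Nestin-Cre alone against both f/f libraries and assumed to vary like them, gave 34 members, 25 higher and 9 lower, with 47.8% of 17747 genes called, and leaving out any other library gave 0. For the fit without Olig2-Cre, shares of all genes by direction are not given. Within the pairs, 5 members were called in opposite directions: Pclo, Rims1 and Dnm3 were higher in Nestin-Cre and lower in Olig2-Cre, and Syt5 and Rab3a the reverse. Of 17282 genes tested in both pairs, 5.77% were called in opposite directions.

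Other synaptic genes were taken from lists fixed by function. Of 105 other presynaptic genes, 104 were tested in each pair. In the Nestin-Cre pair 18 were called higher and 69 lower, with a median of −0.80 below that of the members, and with TMM scaling 35 higher and 45 lower. In the Olig2-Cre pair 8 were higher and 15 lower, and in the Fto pair 6 higher and 13 lower, with medians of 0.00 and −0.04. At the low end of the Nestin-Cre pair were Atp6v0c, a subunit of the proton pump that energizes vesicle loading, at −4.23, and the vesicular GABA transporter Slc32a1 at −2.82. The controls of Atp6v0c themselves ran from 83.3 to 286 CPM. Unc13c, a Munc13 relative, was at −0.69 in the Olig2-Cre and −1.04 in the Fto pair, and Stxbp5l, the second tomosyn, at −0.93 and −1.03. These genes were picked as examples after their values were seen.

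On the postsynaptic side, 36 glutamate and GABA receptor subunits gave 9 higher and 16 lower with Nestin-Cre (23 and 5 with TMM scaling), 3 and 5 with Olig2-Cre, and 1 and 13 with Fto Tg. Of 26 postsynaptic scaffold genes, 5 were higher and 15 lower with Nestin-Cre (14 and 4 with TMM scaling), 0 and 7 with Olig2-Cre, and 1 and 9 with Fto Tg. The median ratios in the Fto pair were −0.16 for receptors and −0.10 for scaffolds, beside −0.07 for the members. No list was compared with another by a test. Mature oligodendrocyte markers, by contrast, had 9 of 16 called lower in the Olig2-Cre pair and 4 of 16 called higher in the Fto pair, and choroid plexus markers 4 of 8 higher and 8 of 8 lower. Their part in the members' ratios was not tested.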

How the data were processed

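RNA-seq read counts per gene were analysed for 6 hippocampal libraries. The authors deposited whole-number counts without normalization. Per the labels and methods, reads were aligned to mm10 with TopHat (the labels name TopHat2 2.0.9), unique reads were kept, and HTSeq 0.6 counted them in union mode without strand on Ensembl genes. Reads shared by overlapping genes were thus lost or could not be assigned by strand. Of the 48 members, 5 shared over 10% of their exon bases with other genes in GENCODE M21 (Syn3, Syp, Syt4, Doc2a and Ppfia2).

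Counts were scaled by library totals. The MARS formulas were programmed in Python 3.11.15 (scipy 1.17.1), with 0.5 added to each count and at least 10 counts over a pair. EdgeR 4.0.16 and DESeq2 1.42.0 were run in R 4.3.3. GC content of the longest transcript and exon length, merged over all transcripts of a gene, were fitted with natural splines over genes with at least 100 counts. The read test, edgeR and DESeq2 were run on simulated counts with known changes. Those counts held no trend with GC content or length, so they could not check that the adjustment removes such a trend. The Fto pair was simulated without spread between libraries. Alternatives were other scalings, the adjustment, another pseudocount, count minimum and fold, an exact test and, chosen after seeing the data, other controls and edgeR against the 3 controls. The members, role groups and gene lists were chosen with earlier results of these data known. Named members were the 3 highest and 3 lowest ratios of each pair, the 5 highest per length and the glutamate transporters. Members called in the same direction with every scaling, the adjustment and either other control were also named (at most 4 per direction). The other alternatives were not part of that rule. Syn2 and Dnm3 were added after their values were seen. Intervals and floors (3 counts) cover counting error only.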

Additional observations from a re-analysis of the deposited data

Results flagged for a closer look

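The Nestin-Cre and Olig2-Cre pairs were called in opposite directions for 5 of 48 members and for 5.77% of 17282 genes, and the difference itself was not tested, since each pair holds 1 library per arm. The Nestin-Cre log2 ratio minus the Olig2-Cre one was 1.58 for Pclo, 0.79 for Dnm3, 0.70 for Rims1, −1.13 for Rab3a and −1.19 for Syt5. After adjustment for GC content and length, Rab3a and Syt5 were above 0 in both pairs (0.40 and 0.12, and 0.35 and 0.12), Dnm3 as well (0.36 and 0.04), whereas Pclo (0.93 and −0.29) and Rims1 (0.84 and −0.20) kept opposite signs.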

How the results depend on the processing

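The 2-library comparisons have no replicate check, and a lone library cannot separate genotype from mouse, dissection or preparation. The Nestin-Cre pair depends on scaling. Its median member ratio of −0.28 was 0.40 with TMM scaling, 0.43 with DESeq2 size factors, 0.035 with totals without mitochondrial genes, 0.37 after allowing for GC content and length, and −0.23 and −0.23 with the f/f control of the Olig2-Cre experiment and WT as control. The Olig2-Cre median of −0.049 was −0.023 with DESeq2 size factors, 0.0085 after the adjustment and −0.12 with the f/f control of the Nestin-Cre experiment. The Fto median of −0.068 was −0.044 with TMM scaling, −0.035 with size factors, −0.039 after the adjustment and −0.13 with the f/f control of the Nestin-Cre experiment. With the controls' dispersion, an exact test called 15, 0 and 0 members in the Nestin-Cre, Olig2-Cre and Fto pairs, in place of 35, 11 and 9, and a fold change of at least 1.5 left 1 in the Olig2-Cre and 2 in the Fto pair. The adjustment left 5 calls in the Olig2-Cre pair, and the f/f control of the Nestin-Cre experiment as control gave 19 in the Fto pair. EdgeR's test against the 3 controls, chosen after seeing the data like the controls of other experiments, called 34 members in Nestin-Cre and 0 in Olig2-Cre and Fto Tg. For the exact test, the fold change of at least 1.5 and the other controls, shares of all genes called are not given. Those counts describe the members only. The cause of the shifts in medians and calls was not tested.

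Single members changed sign as follows. In the Nestin-Cre pair with TMM scaling, the ratio became 0.43 for Sv2b, 0.59 for Syt1, 0.35 for Syt4, 0.45 for Syt7, 0.37 for Doc2b, 0.59 for Stxbp5, 0.33 for Cplx1, 0.68 for Nsf, 0.013 for Napb, 0.66 for Unc13a, 0.022 for Unc13b, 0.64 for Rims2, 0.24 for Bsn, 0.18 for Snap91 and 0.27 for Amph. With DESeq2 size factors it became 0.46 for Sv2b, 0.62 for Syt1, 0.38 for Syt4, 0.48 for Syt7, 0.40 for Doc2b, 0.62 for Stxbp5, 0.36 for Cplx1, 0.71 for Nsf, 0.044 for Napb, 0.69 for Unc13a, 0.053 for Unc13b, 0.68 for Rims2, 0.27 for Bsn, 0.21 for Snap91 and 0.30 for Amph. Without mitochondrial genes it became 0.0050 for Doc2b, 0.32 for Nsf, 0.30 for Unc13a and 0.28 for Rims2. After the adjustment it became 0.35 for Syt5, 0.67 for Syt7, 0.77 for Doc2b, 0.21 for Stx1a, 0.98 for Cplx1, 0.52 for Nsf, 0.74 for Unc13a, 0.38 for Rims2, 0.72 for Bsn, 0.67 for Ppfia3, 0.40 for Rab3a and 0.39 for Amph. With WT as control it was −0.29 for Slc17a6, 0.35 for Unc13a and 0.030 for Bsn. In the Olig2-Cre pair, it became 0.040 for Dnm3 after the adjustment and 0.41 for Doc2b with WT as control. In the Fto pair it was −0.30 for Syp with the f/f control of the Nestin-Cre experiment as control.

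For the 2 Cre against the 2 f/f libraries, leaving out 1 library at a time gave 0 to 34 members, and 34 came without Olig2-Cre. With the experiment as a replicate block, 0 members were called, as without the block, and 2 genes in all against 0. Every sample carries replicate number 1, and both f/f controls bear the same genotype label. The pairing of each f/f control with a Cre library was taken by experiment and is not given by those genotype labels.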
